A study of Mus musculus with 22 samples.

Results

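Kinesins are motor proteins that move along microtubules. The kinesin genes described here are the 41 genes whose symbol starts with Kif followed by a digit or the letter c, of 19721 genes listed in at least 1 of 22 RNA-seq libraries. Of these, 40 encode motors or motor-like proteins. Kif1bp, which encodes a protein that binds kinesins and is no motor, matched the symbol rule and was kept apart from every count. The 40 motors were divided by their main known role into 13 mitotic kinesins, 8 neuronal transport kinesins, 9 kinesins of broad transport, 6 kinesins of cilia and centrioles and 4 others. All 40 passed the filter on low counts in every comparison.

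The libraries were made from J1 mouse embryonic stem (ES) cells and from embryoid bodies, the aggregates in which ES cells differentiate. Untreated ES cells gave 2 libraries. Embryoid bodies were sampled on days 4, 9, 12, 18 and 28, called D4 to D28 after the sample titles. Each day had 2 libraries kept in 0.1% DMSO, the vehicle, and 1 library each with 10 nM and 100 nM tetrabromobisphenol A (TBBPA), a brominated flame retardant. All groups are 1 cell line, and the labels do not say whether the libraries of 1 group are separate cultures, so the p-values measure the spread between these libraries, which may be technical.

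A dividing cell assembles a spindle of microtubules, on which mitotic kinesins separate the poles, align the chromosomes and prepare the division of the cytoplasm. A neuron instead sends vesicles, organelles and RNA over long distances along the microtubules of axons and dendrites, carried by kinesins that are enriched in nerve tissue. Genes of mitosis are transcribed mainly late in the cell cycle, and many of their promoters carry CCAAT boxes and an element called the CHR (cell cycle genes homology region), whose core reads TTTGAA.

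Promoters of 4 mitotic kinesins and 1 neuronal transport kinesin are shown because the mitotic kinesins moved together in these data. The stretches run from 100 bases before to 30 after the RefSeq transcription start (mouse build GRCm38.p6), 5′ to 3′ on the gene's strand. Capitals mark each CCAAT and each TTTGAA, or their reverse complements ATTGG and TTCAAA. Kif11 lies on the plus strand at chr19:37376282-37376411 and Kif5c on the plus strand at chr2:49619186-49619315. Kif18b at chr11:102925095-102925224, Kif22 at chr7:127042391-127042520 and Kifc1 at chr17:33890604-33890733 are on the minus strand.
Kif11: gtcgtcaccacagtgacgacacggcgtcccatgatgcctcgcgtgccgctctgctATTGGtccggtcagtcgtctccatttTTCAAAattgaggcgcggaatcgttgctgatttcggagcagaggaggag
Kif18b: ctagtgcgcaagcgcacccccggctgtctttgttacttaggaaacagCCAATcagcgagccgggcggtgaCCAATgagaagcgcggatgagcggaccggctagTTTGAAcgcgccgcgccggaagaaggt
Kif22: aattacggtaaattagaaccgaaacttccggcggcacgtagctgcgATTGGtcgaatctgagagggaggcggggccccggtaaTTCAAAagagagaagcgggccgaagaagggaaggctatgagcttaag
Kifc1: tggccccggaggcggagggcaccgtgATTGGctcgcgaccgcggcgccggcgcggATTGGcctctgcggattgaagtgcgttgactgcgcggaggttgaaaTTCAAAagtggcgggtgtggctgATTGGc
Kif5c: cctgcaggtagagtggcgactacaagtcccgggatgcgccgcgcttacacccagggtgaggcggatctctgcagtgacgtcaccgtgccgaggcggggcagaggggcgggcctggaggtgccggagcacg
Kif11 and Kif22 each held 1 CCAAT and 1 TTTGAA in these stretches, Kif18b held 2 and 1, Kifc1 held 3 and 1, and Kif5c held 0 of either. RefSeq windows of 300 bases (250 before and 50 after the start) were matched by gene ID for 33 of the 41 genes, among them 12 of the 13 mitotic and 5 of the 8 neuronal transport kinesins. TTTGAA on either strand stood in 11 of 12 mitotic windows (91.7%) and in 17.9% of all 32851 windows. CCAAT stood in 8 of 12 mitotic windows (66.7%), against 37.4% of all windows, and both motifs together in 8 of 12, against 6.95%. The 4 mitotic promoters printed are among these 8, and so are the near-identical copies Kifc1 and Kifc5b. Kif18a held neither motif, and Kif15, Kif20b and Kif2c held TTTGAA without CCAAT. Of the 6 windows of neuronal transport kinesins, 0 held CCAAT and 1 held TTTGAA. Of the 7 windows of broad transport kinesins, 4 held CCAAT and 0 held TTTGAA, and of the 6 of cilia kinesins, 3 and 1 did. Matches of both motifs were counted also where they overlapped, and a match describes the sequence and does not show a bound site.

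Total expected counts were 18158583 to 18998141 per library. The marker genes of pluripotent cells (7 of 7 listed, among them Pou5f1 and Nanog) summed to 2485 and 2325 FPKM in the ES libraries and to 278 to 284 with DMSO at D28, with none at 0. FPKM are fragments scaled by transcript length and by the mapped fragments of the library, so levels can be compared between genes. The 2 ES libraries differed more from each other than the 2 of any DMSO pair, with a mean chi-square per gene of 21.2 against 1.61 to 3.25. In bulk RNA, fewer cells of a type and less RNA per cell cannot be told apart.

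The mitotic kinesins were the most abundant class in ES cells and fell as embryoid bodies aged, while the neuronal transport class had its highest sum at D18. Their summed level was 472 ± 11.8 FPKM (mean ± SD, n = 2) in ES cells, 409.1 ± 0.141 at D4, 405.4 ± 3.68 at D9, 376.4 ± 0.778 at D12, 268.1 ± 2.47 at D18 and 145.6 ± 3.32 at D28 with DMSO, 3.24-fold lower at D28 than in ES cells. The summed level of the 8 neuronal transport kinesins went the other way to D18, at 21.2 ± 2.11 in ES cells, 45.8 ± 0.156 at D4, 44.6 ± 0.0778 at D9, 70.2 ± 1.29 at D12 and 116.8 ± 2.69 at D18. It was 62.5 ± 0.226 at D28, 1.87-fold lower than at D18. Most of its rise from ES cells to D4 came from Kif1a, at 0.2 and 0.19 FPKM in ES cells and 19.1 and 20.2 at D4. At that step 4 of the 8 members fell. The ratio of both sums was 24.4 and 20.5 in the ES libraries, 2.24 and 2.35 at D18 and 2.37 and 2.28 at D28. Both classes were lower at D28 than at D18, by similar folds of 1.84 and 1.87. Motors with a mean of at least 1 FPKM numbered 30 in ES cells and 38 at D28. The 5 most abundant in ES cells were Kif20a, Kifc1, Kif22, Kif2c and Kif23, all mitotic, and at D28 they were Kif5b, Kif1c, Kifc1, Kif1b and Kif1a, of which 1 is mitotic.

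**Figure D1:**
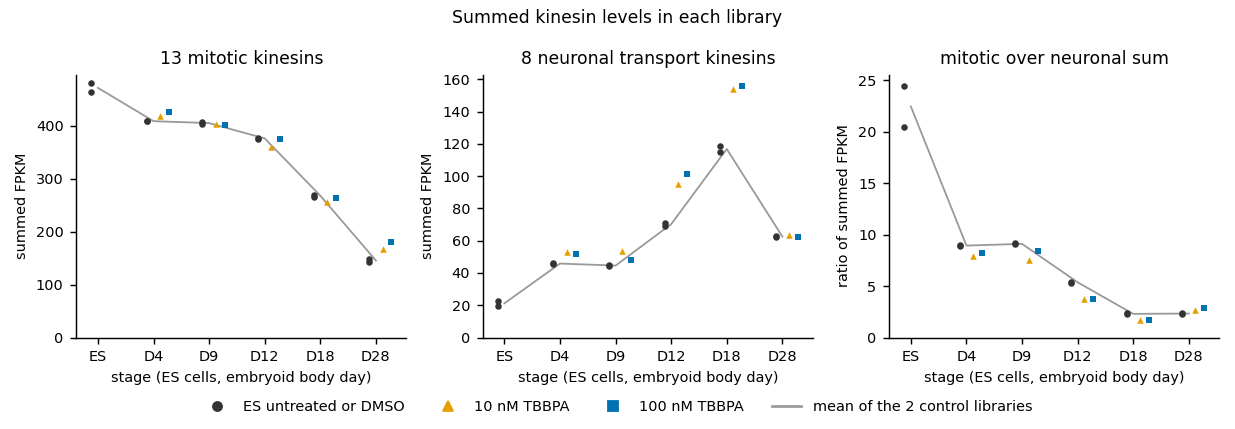
Summed FPKM of the 13 mitotic kinesins, of the 8 neuronal transport kinesins and the ratio of both sums in each of the 22 libraries, by stage (points are single libraries, the line joins the means of the 2 control libraries). The mitotic sum falls from 480.4 and 463.7 in ES cells to 147.9 and 143.2 at D28, the neuronal sum is highest at D18, and both TBBPA libraries lie above the DMSO pair in the neuronal sum at D12 and D18.

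Each step between consecutive control stages was tested with edgeR's quasi-likelihood F test in 1 fit of the 12 control libraries, with Benjamini-Hochberg adjustment over all genes tested and a threshold of 0.05 on the adjusted p. From ES cells to D4, 24 of 40 motors passed, 8 higher and 16 lower, against 62.3% of all genes tested (31.9% higher and 30.3% lower). The fit shares its estimate of the spread between all groups, and the ES pair differed more than any DMSO pair. With only the 4 libraries of this step, 16 of 40 passed, and calls of all genes went from 10090 to 7484. From D4 to D9, 27 passed (15 higher and 12 lower), with a background of 60.8% (31.9% and 28.9%). From D9 to D12, 16 passed (9 and 7), with a background of 33.1% (17.5% and 15.6%). From D12 to D18, 27 passed (12 and 15), with a background of 37.7% (20.7% and 17.1%). From D18 to D28, 31 passed (6 higher and 25 lower), with a background of 53% (24.9% and 28.1%). The share of motors called was thus near the background at the first 3 steps and above it at the last 2.

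The mitotic kinesins moved as a block in the last 2 steps. From D12 to D18 all 13 fell, with a median log2 change of -0.54 (range -0.61 to -0.41), where the median of all genes was 0. From D18 to D28, 12 of 13 fell, with a median of -1.04, where that of all genes was -0.03. The exception was Kifc5b. These counts were 13 of 13 and 12 of 13 under each alternative of tool, scaling and filter and without any 1 of the libraries of the step, except that without the ES libraries in the fit Kifc5b passed too (13 of 13). Earlier, 8 of 13 were lower from ES cells to D4 (median -0.23) and 7 of 13 from D9 to D12 (median -0.21). In this fit of the 12 control libraries, 0 were higher at either step. The 8 came to 5 with only the 4 libraries of the step from ES cells to D4 in the fit. A fit of only the D9 and D12 control libraries called mitotic kinesins in both directions, with 3 rising and 8 falling. Calls of all genes at that step went from 5361 to 8056. Without the ES libraries 1 rose at that step, and the number that fell was unchanged. The 7 came to 3 without DMSO replicate 1 of D12 and to 4 without any other of the 4 libraries.

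At the step from D4 to D9 the mitotic calls depended on the scaling. With TMM scaling 6 of 13 fell and Kif15 rose (median -0.16). The 6 came to 5 without DMSO replicate 1 of D4, 3 without its replicate 2, 4 without DMSO replicate 1 of D9 and 2 without its replicate 2, with 0 higher each time. With library size alone 3 were higher and 0 lower, and with limma on FPKM 2 were higher and 0 lower. Library size alone also moved the median of all genes from 0.01 to 0.15 on the log2 scale and the share of calls that were higher from 52.5% to 64.6%. The summed FPKM, which is not TMM-scaled, was 409.1 at D4 and 405.4 at D9. The step from D9 to D12 moved likewise from 52.8% to 65.6% higher, and its mitotic calls from 0 higher and 7 lower to 1 and 4. No direction is drawn for the mitotic class between D4 and D9.

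Among the motors that build the spindle, Kif11 (Entrez gene 16551), which pushes the spindle poles apart, stood at 33.4 and 31.3 FPKM in the ES libraries, 30.5 and 32.4 at D4, 31.1 and 29.8 at D9, 25.8 and 27.8 at D12, 18.5 and 19.2 at D18 and 9.05 and 9.76 at D28. Kif15, which helps Kif11 to keep the poles apart, stood at 16.6 and 17.6 FPKM in the ES libraries, 14 and 14.1 at D4, 18.1 and 18.1 at D9, 11.9 and 13 at D12, 9.91 and 9.59 at D18 and 4.75 and 4.24 at D28. Kifc1, which moves to microtubule minus ends and focuses the poles, stood at 78.3 and 67.1 FPKM in the ES libraries, 64.1 and 62.5 at D4, 60.3 and 57.2 at D9, 65 and 63.5 at D12, 45.3 and 47.6 at D18 and 31.2 and 26.7 at D28. Kif11 at D4 overlapped both the ES and the D9 libraries and lay below all of these from D12 on, whereas Kif15 at D9 lay above every other control library. Kifc1 was still the most abundant motor at D18, and at D28 it ranked below Kif5b and Kif1c only. Its near-identical copy Kifc5b stood at 14.9 and 14.6 FPKM in the ES libraries, 13.6 and 14.8 at D4, 14.3 and 13.8 at D9, 16.8 and 16 at D12, 11.9 and 10.6 at D18 and 10.3 and 10.2 at D28. The sources used here do not give how reads were split between these copies, so both values are uncertain. Of the mitotic class, Kifc5b kept the largest share of its ES level at D28.

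Of the motors that act on chromosomes and microtubule ends, Kif22 (Entrez gene 110033), which pushes chromosome arms away from the poles, stood at 69.1 and 69.7 FPKM in the ES libraries, 62.4 and 58.4 at D4, 62.9 and 62.4 at D9, 54 and 54.2 at D12, 37.5 and 35.9 at D18 and 18.7 and 17.5 at D28. Kif4, a chromosome-arm motor that also works in the spindle midzone, stood at 19.2 and 21.5 FPKM in the ES libraries, 22.3 and 21.4 at D4, 22.1 and 22.9 at D9, 20.4 and 20.5 at D12, 14.8 and 14.6 at D18 and 6.97 and 7.24 at D28. Kif2c, which takes microtubules apart at centromeres and so corrects faulty attachments, stood at 53 and 55.6 FPKM in the ES libraries, 47.7 and 47.1 at D4, 43.2 and 44.7 at D9, 40.1 and 39.3 at D12, 27.3 and 27 at D18 and 12.6 and 13.5 at D28. Kif2c was lower at each stage than at the one before in both libraries, while Kif4 at D9 lay above both ES libraries. Kif18a, which dampens chromosome movements at the spindle equator, stood at 12.6 and 12.5 FPKM in the ES libraries, 8.86 and 9.77 at D4, 8.36 and 8.29 at D9, 8.23 and 8.83 at D12, 5.5 and 6.04 at D18 and 2.87 and 2.33 at D28. Kif18b, which shortens astral microtubules, stood at 29.1 and 25.3 FPKM in the ES libraries, 23.5 and 26.1 at D4, 23.5 and 24 at D9, 27 and 26.6 at D12, 18.8 and 19.7 at D18 and 10.7 and 11.2 at D28. All 5 had their lowest 2 control libraries at D28. The fall from D18 to D28 was largest in this group for Kif18a (log2 change -1.17, SE 0.108, adjusted p = 7.97e-07) and smallest for Kif18b (log2 change -0.84, SE 0.078, adjusted p = 8.21e-07).

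Of the motors that act in the division of the cytoplasm, Kif20a, which carries the chromosomal passenger complex to the midzone, stood at 88.8 and 80 FPKM in the ES libraries, 64.4 and 66.7 at D4, 62.3 and 59.6 at D9, 51.8 and 53 at D12, 37 and 37.1 at D18 and 19.4 and 19.6 at D28. Kif23, a subunit of centralspindlin, which organises the cleavage furrow, stood at 36 and 42.2 FPKM in the ES libraries, 40.3 and 37.5 at D4, 41 and 40.7 at D9, 36.7 and 35.3 at D12, 26.6 and 28 at D18 and 14.4 and 14.5 at D28. Kif20a was the most abundant of all motors in ES cells and fell at every step with TMM scaling, the step from D4 to D9 not with library size alone. Kif23 first passed from D9 to D12, a call lost without any 1 of the 4 libraries. Kif20b, which acts in the last phase of cytokinesis, stood at 22.1 and 20.3 FPKM in the ES libraries, 12.5 and 13.4 at D4, 15 and 15.7 at D9, 12.6 and 13.3 at D12, 9.27 and 11 at D18 and 5.06 and 4.76 at D28. Kif14, which recruits citron kinase to the midbody, stood at 7.26 and 6.04 FPKM in the ES libraries, 4.76 and 4.98 at D4, 5.94 and 5.69 at D9, 5.53 and 5.72 at D12, 4.11 and 3.68 at D18 and 1.9 and 1.69 at D28. Both stood higher in the D9 than in the D4 libraries. Kif20b had the largest fall of the mitotic class from ES cells to D4 (log2 change -0.77, SE 0.082, adjusted p = 1.65e-06), and both of its D4 libraries lay below both ES libraries. In the edgeR fit the fall from D18 to D28 was -0.96 for Kif20a, -0.95 for Kif23, -1.09 for Kif20b and -1.13 for Kif14 on the log2 scale.

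A list of 20 other spindle and mitosis genes, among them the kinesin Cenpe, the Aurora kinases and Mki67, moved with the class. All 20 fell from D12 to D18 (median -0.55, 17.1% of all genes lower) and all 20 from D18 to D28 (median -0.90, 28.1% lower). Their sum was 1507 and 1546 FPKM in ES cells and 443 and 444 at D28. Fibroblast markers passed as higher for 5 of 6 from D12 to D18 (20.7% of all genes) and 6 of 6 from D18 to D28 (24.9%). These markers summed to 2.25 and 1.36 FPKM in ES cells, with 1 of 6 at 0 in 1 library, and to 2960 and 3039 at D28. The part of this change in cell types in the fall of the mitotic kinesins was not tested.

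**Figure D2:**
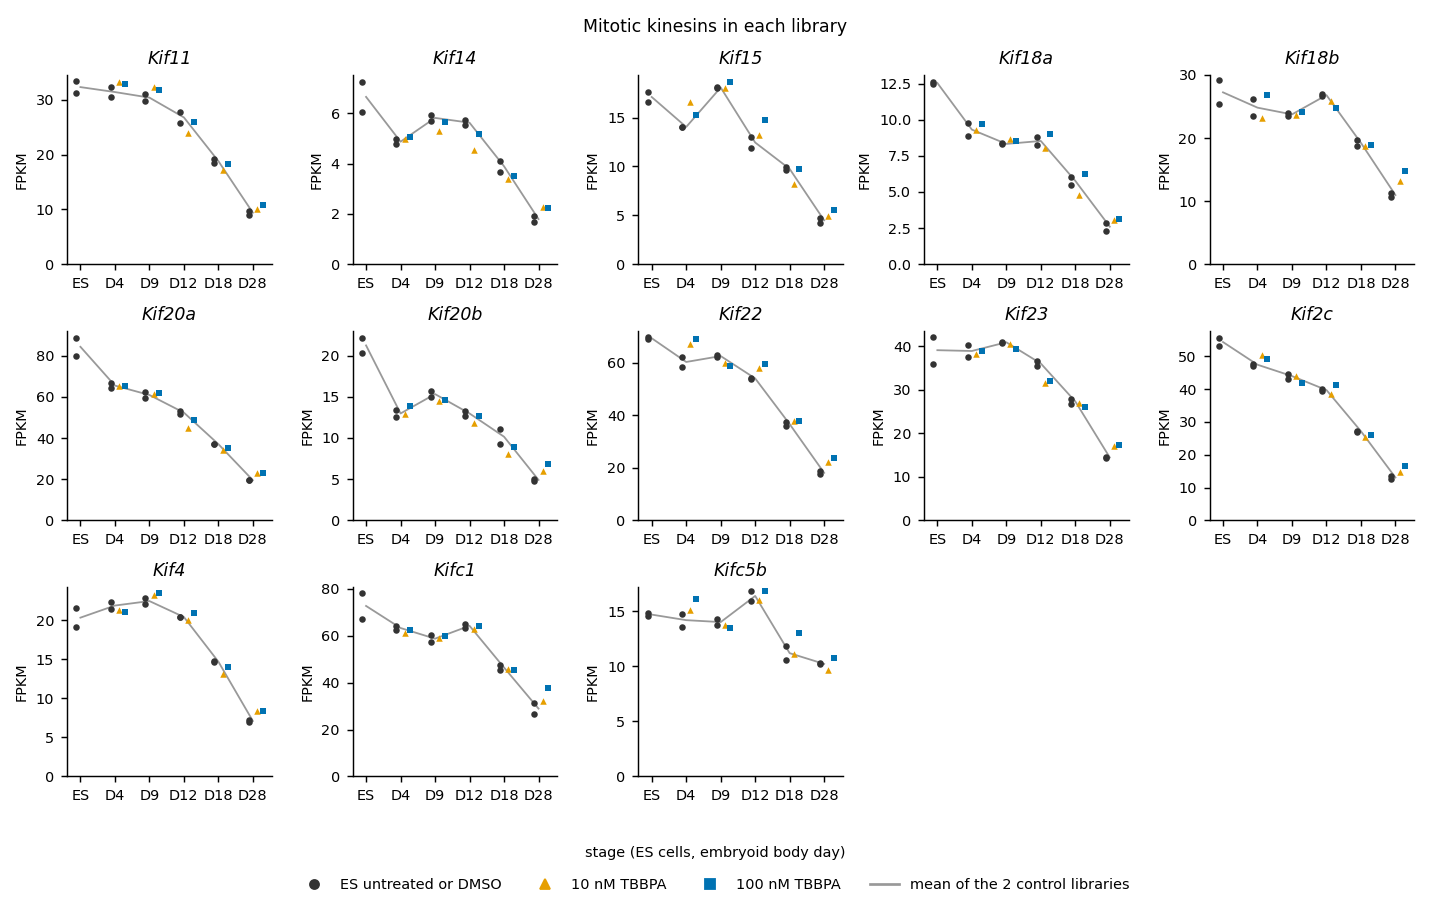
FPKM of the 13 mitotic kinesins in each library by stage (circles are ES cells or DMSO, triangles 10 nM and squares 100 nM TBBPA, and the line joins the control means). All 13 are lower at D18 than at D12. At D28, 7 of 13 passed as higher with TBBPA, where 3.65% of all genes did.

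Among the neuronal transport kinesins, Kif1a, Kif17 and Kif21a were below 1 FPKM in both ES libraries and the other 5 were above. From ES cells to D4, 3 of 8 rose (Kif1a, Kif21a and Kif5c) and 4 fell (Kif5a, Kif17, Kif21b and Kifc2), with a median log2 change of -0.28. The Kif17 call was lost without any 1 of the 4 libraries, and without DMSO replicate 2 of D4 the 4 came to 2. From D4 to D9, 4 rose (Kif3c, Kif5c, Kif21a and Kif21b) and 2 fell (Kif1a and Kif5a). The Kif5a call was lost without DMSO replicate 1 of D4 or DMSO replicate 2 of D9, and with library size alone, DESeq2 or limma 1 fell. From D9 to D12, 5 rose and 0 fell (median 0.57). From D12 to D18, 7 of 8 rose (median 0.82), and Kif21a (log2 change 0.15, adjusted p = 0.0642, edgeR) did not pass. From D18 to D28, 6 of 8 fell (median -0.57), and Kif17 and Kifc2 did not pass. The calls of Kif17 and Kif21b from D12 to D18 were lost without any 1 of the 4 libraries, which left 5 of 8. All 8 had their highest control mean at D18.

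Kif1a (Entrez gene 16560), which carries precursors of synaptic vesicles down the axon, stood at 0.2 and 0.19 FPKM in the ES libraries, 19.1 and 20.2 at D4, 6.54 and 6.45 at D9, 11.8 and 11.9 at D12, 25.4 and 24 at D18 and 19.6 and 19.8 at D28. Its rise from ES cells to D4 was the largest of any motor at that step (log2 change 6.66, SE 0.091, adjusted p = 3.94e-15). Kif1a fell again by D9 (log2 change -1.74, SE 0.057, adjusted p = 9.18e-12) and rose to D18. The 10 neuron markers summed to 12.4 and 14.7 FPKM at D4, 26.1 and 26.4 at D9 and 113 and 115 at D18. At D28, where the neuron sum was down to 20.3 and 21, Kif1a had fallen less than the other called members (log2 change -0.35, SE 0.054, adjusted p = 9.24e-05).

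Kinesin-1 moves vesicles and mitochondria, and Kif5a and Kif5c are its heavy chains enriched in neurons. Kif5a (Entrez gene 16572) stood at 5.36 and 5.32 FPKM in the ES libraries, 2.09 and 1.92 at D4, 1.89 and 1.73 at D9, 3.78 and 4.02 at D12, 8.73 and 8.89 at D18 and 1.93 and 1.87 at D28. Kif5c (Entrez gene 16574) stood at 2.19 and 2.04 FPKM in the ES libraries, 5.64 and 5.67 at D4, 7.55 and 7.92 at D9, 14.2 and 14.6 at D12, 29.7 and 28.3 at D18 and 6.68 and 7.31 at D28. Both rose at D12 and D18 and lost the most of all motors from D18 to D28 (Kif5a log2 change -2.27, SE 0.089, adjusted p = 2.49e-10, Kif5c log2 change -2.08, SE 0.066, adjusted p = 3.13e-11). They differed at the start, where Kif5a fell from ES cells to D4 (-1.42 on the log2 scale) and Kif5c rose (1.39). In both ES libraries Kif5a stood higher than in every DMSO library but those of D18.

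Kif21a and Kif21b are kinesins that restrain microtubule growth in axons and dendrites. Kif21a stood at 0.68 and 0.75 FPKM in the ES libraries, 9.03 and 9.33 at D4, 12.2 and 12.2 at D9, 17.1 and 18.3 at D12, 20.3 and 20.1 at D18 and 15.3 and 14.7 at D28. Kif21b stood at 3.49 and 5.92 FPKM in the ES libraries, 2.48 and 2.41 at D4, 6.52 and 6.45 at D9, 8.96 and 8.62 at D12, 12.9 and 12.6 at D18 and 4.23 and 3.9 at D28. Kif21a rose by 3.63 on the log2 scale from ES cells to D4. From D18 to D28 it fell (log2 change -0.45, SE 0.061, adjusted p = 3.06e-05), as did Kif21b (log2 change -1.67, SE 0.182, adjusted p = 4.13e-05). The 2 ES libraries of Kif21b were further apart than any of its DMSO pairs.

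Kif3c, a kinesin-2 motor that pairs with Kif3a, stood at 4.07 and 4.44 FPKM in the ES libraries, 4.34 and 3.64 at D4, 7.33 and 7.4 at D9, 10.4 and 10.8 at D12, 15.8 and 15.6 at D18 and 9.79 and 10.2 at D28. Kifc2, a minus-end directed motor of neurons, stood at 3.24 and 3.5 FPKM in the ES libraries, 2.68 and 2.4 at D4, 2.39 and 2.1 at D9, 2.66 and 2.38 at D12, 5.22 and 4.59 at D18 and 4.25 and 4.21 at D28. Kif17, which carries NMDA receptors into dendrites, stood at 0.45 and 0.5 FPKM in the ES libraries, 0.32 and 0.3 at D4, 0.22 and 0.28 at D9, 0.41 and 0.51 at D12, 0.79 and 0.82 at D18 and 0.56 and 0.67 at D28. Kif3c rose at each step from D4 to D18. Kif17 stayed below 1 FPKM in every control library. Of the class, Kifc2 and Kif17 had the lowest levels at D18.

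A list of 12 other neuronal microtubule genes, such as Map2, Mapt, Dcx and Tubb3, had 12 of 12 rising from D12 to D18 (median 1.20) and 11 of 12 falling from D18 to D28 (median -1.81). Of 15 kinesin cargo and adaptor genes, 8 rose and 2 fell from D12 to D18, and 1 rose and 10 fell from D18 to D28. All 10 neuron markers rose from D9 to D12 and all 10 fell from D18 to D28. Of all genes, 17.5% rose from D9 to D12. From D12 to D18, 20.7% of all genes rose and 17.1% fell, and from D18 to D28, 24.9% and 28.1%. The part of the number of neurons in the change of these kinesins was not tested.

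**Figure D3:**
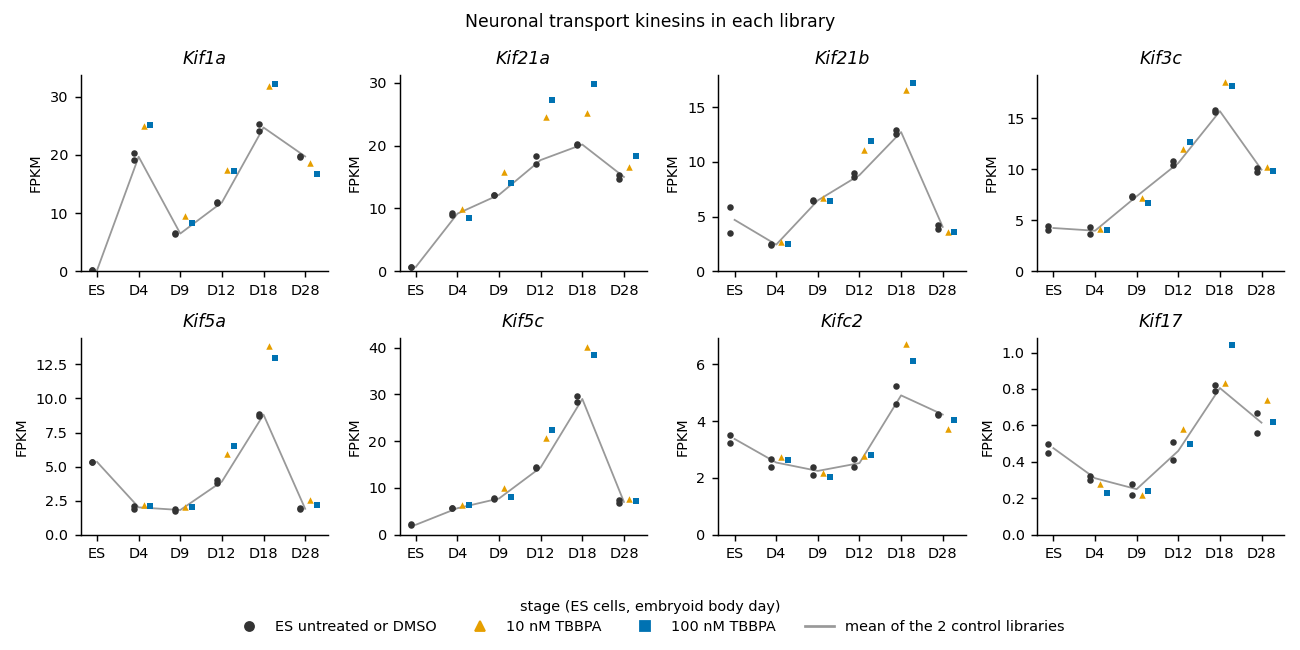
FPKM of the 8 neuronal transport kinesins in each library by stage (circles are ES cells or DMSO, triangles 10 nM and squares 100 nM TBBPA, and the line joins the control means). All 8 are highest at D18 among the controls, and Kif1a has an added high level at D4. At D18, 7 of 8 passed as higher with TBBPA, where 5.96% of all genes did, and Kif17 did not pass.

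From D18 to D28, 4 of 6 cilia kinesins rose (Kif6, Kif9, Kif19a and Kif27) and Kif24 fell, with a median of 1.36. Kif19a, which limits the length of motile cilia, stood at 0.3 and 0.29 FPKM in the ES libraries, 0.2 and 0.16 at D4, 0.65 and 0.64 at D9, 2.5 and 2.3 at D12, 1.35 and 1.52 at D18 and 6.03 and 5.49 at D28. Kif27, a motor-like protein of motile cilia, stood at 0.22 and 0.24 FPKM in the ES libraries, 0.45 and 0.75 at D4, 0.28 and 0.3 at D9, 0.47 and 0.41 at D12, 0.93 and 0.76 at D18 and 3.25 and 3.33 at D28. Kif9, which acts in cilia and sperm tails, stood at 0.41 and 0.45 FPKM in the ES libraries, 0.2 and 0.24 at D4, 0.44 and 0.32 at D9, 0.52 and 0.51 at D12, 1.06 and 1.01 at D18 and 3.14 and 3.49 at D28. For all 3 both D28 libraries lay above every earlier control library. Kif6, also of motile cilia, stood at 0.03 and 0.04 FPKM in the ES libraries, 0.15 and 0.18 at D4, 0.47 and 0.45 at D9, 0.55 and 0.63 at D12, 0.76 and 0.74 at D18 and 1.91 and 1.63 at D28, likewise highest in both D28 libraries. The edgeR log2 changes from D18 to D28 were 1.91 for Kif19a (SE 0.133), 1.82 for Kif27 (SE 0.172), 1.54 for Kif9 (SE 0.177) and 1.18 for Kif6 (SE 0.177). Kif19a also had an early rise to D12 followed by a fall to D18 (1.82 and then -0.73 on the log2 scale).

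Markers of multiciliated cells (11 of 11 listed, led by Foxj1) summed to 15.9 and 14.3 FPKM at D18 and to 54.5 and 52.8 at D28, with 10 of 11 rising. They also summed to 30.4 and 30.5 at D4, where Kif19a and Kif9 were at their lowest. In the D4 DMSO libraries Dnah9 was at 0 in both and Mcidas in 1. The highest of these markers there were Foxj1 (9.86 and 11.1 FPKM), Rsph1 (8.64 and 7.88) and Dnaic1 (7.52 and 7.53). Intraflagellar transport genes, which every ciliated cell uses, had 1 of 11 rising and 1 falling from D18 to D28. At this step 24.9% of all genes rose and 28.1% fell. Kif7, a ciliary regulator of Hedgehog signalling, ranged from 2.89 to 7.42 FPKM over the 22 libraries and rose from D4 to D9 (log2 change 0.94, SE 0.1, adjusted p = 1.74e-06). Kif24, which holds back cilium formation at the centriole, ranged from 1.79 to 3.83 FPKM and fell from D18 to D28 (-0.47).

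**Figure D4:**
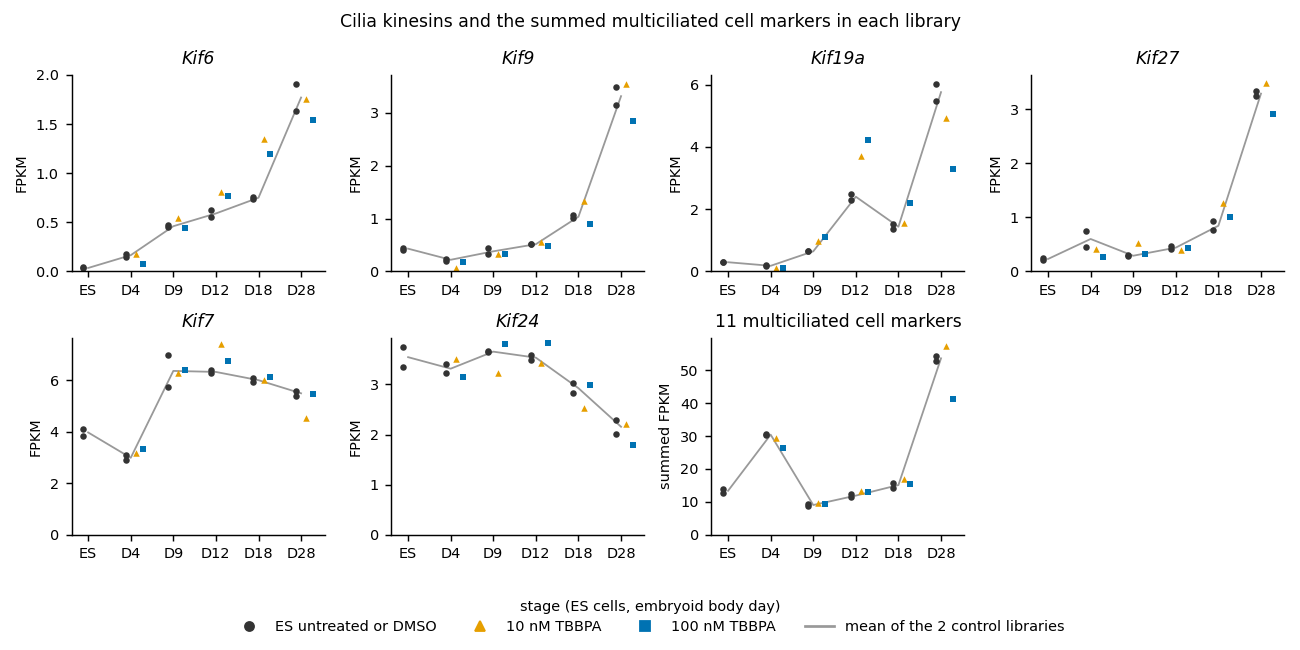
FPKM of the 6 kinesins of cilia and centrioles, and the summed FPKM of 11 multiciliated cell markers, in each library by stage (circles are ES cells or DMSO, triangles 10 nM and squares 100 nM TBBPA, and the line joins the control means). Kif6, Kif9, Kif19a and Kif27 are highest at D28 together with the marker sum, and Kif7 and Kif24 are not.

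Of the 9 motors of broad transport, 4 rose and 3 fell from D4 to D9, where 31.9% of all genes rose and 28.9% fell. The calls of Kif3b and Kif13a at this step were each lost in 3 of 14 alternatives. Their log2 changes over these ranged from 0.226 to 0.471 and from -0.363 to -0.166. From D12 to D18, 2 of 9 rose (Kif1b and Kif3a) and 0 fell, where 20.7% of all genes rose and 17.1% fell. From D18 to D28, 2 rose (Kif1c and Kifc3) and 3 fell (Kif1b, Kif3a and Kif13a), where 24.9% and 28.1% of all genes did. The late call of Kif13a was lost without any 1 of the 4 libraries, and that of Kif1b without DMSO replicate 1 of D18 or either D28 library, which left 1. Kif5b, the kinesin-1 heavy chain found in most cells, ranged from 30.5 to 43.2 FPKM over the 22 libraries and passed at no step. Kif1c, which carries vesicles from the Golgi, was the 1 member of this class with a step over 2-fold and stood at 13.1 and 12.2 FPKM in the ES libraries, 28.3 and 30.1 at D4, 31 and 30.7 at D9, 29.7 and 30.9 at D12, 26.5 and 29.1 at D18 and 36.9 and 39 at D28. It rose from ES cells to D4 (log2 change 1.18, SE 0.066, adjusted p = 1.57e-09) and again from D18 to D28 (0.45). The lowest values of Kif1b and Kif3a, 8.05 and 5.75 FPKM, were in an ES library, and Kif3b ranged from 5.09 to 9.31 and Kif13a from 6.78 to 11.2. Kif13b, a motor of polarity proteins, stood at 12 and 12.4 FPKM in the ES libraries, 9.06 and 9.45 at D4, 6.28 and 6.29 at D9, 7.36 and 6.92 at D12, 7.58 and 7.51 at D18 and 8.65 and 8.37 at D28. Kif16b, a motor of early endosomes, stood at 7.02 and 6.49 FPKM in the ES libraries, 5.89 and 6.26 at D4, 5.04 and 4.73 at D9, 5.32 and 5.27 at D12, 5.95 and 5.77 at D18 and 5.74 and 6.34 at D28. Kifc3, a minus-end directed motor at cell junctions, stood at 6.53 and 4.67 FPKM in the ES libraries, 4.55 and 4.89 at D4, 8.04 and 8.68 at D9, 10.6 and 9.33 at D12, 9.8 and 9.58 at D18 and 13.5 and 12.8 at D28. Kif13b was highest in ES cells and lowest at D9, and Kifc3 was highest at D28.

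Of the other motors, Kif26a, a motor-like protein of enteric nerve development, stood at 0.74 and 1.09 FPKM in the ES libraries, 2.55 and 2.81 at D4, 5.33 and 5.43 at D9, 10.5 and 10.4 at D12, 9.33 and 9.66 at D18 and 3.38 and 3.61 at D28. Kif26b, which is needed for kidney development, stood at 0.06 and 0.05 FPKM in the ES libraries, 0.05 and 0.01 at D4, 0.66 and 0.7 at D9, 1.71 and 1.63 at D12, 3.46 and 3.09 at D18 and 2.62 and 2.75 at D28. Both rose at D9 and D12 and fell from D18 to D28, and Kif26b also rose from D12 to D18. The late fall of Kif26b was lost without DMSO replicate 1 of D18. Kif12 was at 0 FPKM in both D4 libraries and at 0.54 and 0.59 at D9, at least 7.44-fold higher than a floor of 3 counts per library at D4. It stood at 0 and 0.03 FPKM in the ES libraries, 0 and 0 at D4, 0.54 and 0.59 at D9, 0.39 and 0.62 at D12, 0.36 and 0.29 at D18 and 0.18 and 0.27 at D28. Kif2a, which takes microtubules apart at their ends, ranged from 17.1 to 25 FPKM and passed only from D18 to D28 (-0.28). Kif1bp ranged from 12.7 to 25.6 FPKM and passed in no comparison.

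TBBPA was compared with DMSO at each day in 1 edgeR fit of all 22 libraries. The 10 nM and the 100 nM library of a day served as 2 samples, since each dose at a day is 1 library. Of the 40 motors, 2 passed at D4 (background 0.458% of all genes), 1 at D9 (2.34%), 10 at D12 (21.1%), 9 at D18 (10.5%) and 9 at D28 (7.09%). At D12, 10 of 40 is close to the background share. At D4 the calls were 1 higher and 1 lower with TBBPA, where 0.0855% of all genes were higher and 0.372% lower. The D9 call was higher, where 1.37% were higher and 0.964% lower. At D12, 8 were higher and 2 lower, where 11.9% of all genes were higher and 9.19% lower. At D18, 8 were higher and 1 lower, with backgrounds of 5.96% and 4.56%. At D28, 8 were higher and 1 lower, with backgrounds of 3.65% and 3.44%. The DMSO libraries of a day are shared by both doses.

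Neuronal transport kinesins were higher with TBBPA at D12 and D18, and mitotic kinesins at D28. At D12, 6 of 8 neuronal transport kinesins rose (median 0.49, all genes 0.03) and 0 of 13 mitotic kinesins passed (median -0.03). At D18, 7 of 8 neuronal transport kinesins rose (median 0.43, all genes 0.02) and 0 of 13 mitotic kinesins passed (median -0.05). At D28, 7 of 13 mitotic kinesins rose (median 0.29, all genes 0.01) and 1 of 8 neuronal transport kinesins (median 0.07). The mitotic sum at D28 was 167.2 and 180.8 FPKM with 10 and 100 nM, 1.2-fold that with DMSO. The neuronal sum was 94.9 and 101.2 at D12 and 153.7 and 156.1 at D18, 1.4-fold and 1.33-fold that with DMSO. The ratio of mitotic to neuronal sum was 3.79 and 3.72 at D12, where the DMSO libraries had 5.42 and 5.30, and 1.66 and 1.69 at D18, where they had 2.24 and 2.35.

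**Figure D5:**
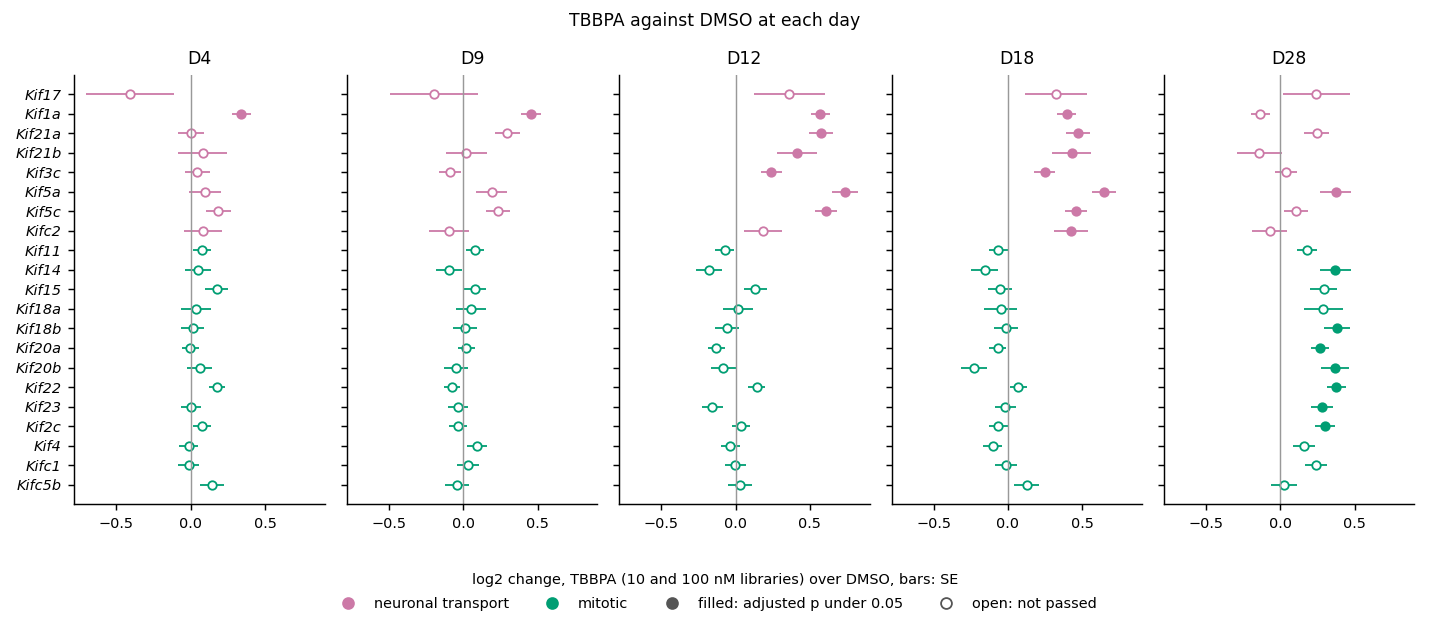
Log2 change with TBBPA against DMSO for the 8 neuronal transport and 13 mitotic kinesins at each day (points are edgeR estimates from the 10 nM and 100 nM libraries against the DMSO pair, bars are SE, and filled points passed at an adjusted p under 0.05). Filled points are neuronal at D12 (6) and D18 (7) and mitotic at D28 (7), with Kif1a alone among these 21 genes at D4 and D9 and Kif5a at D28.

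In the following sentences the first value of a pair is the 10 nM and the second the 100 nM library. Kif1a stood at 24.9 and 25.2 FPKM at D4, 9.52 and 8.25 at D9, 17.3 and 17.2 at D12, 31.8 and 32.2 at D18 and 18.5 and 16.7 at D28. It rose at D4 (log2 change 0.34, SE 0.062, adjusted p = 0.0145), D9 (log2 change 0.46, SE 0.068, adjusted p = 0.000464), D12 (log2 change 0.57, SE 0.064, adjusted p = 2.19e-06) and D18 (log2 change 0.40, SE 0.062, adjusted p = 0.000201) in the edgeR fit. At D28 both TBBPA libraries lay below both DMSO libraries, at a log2 change of -0.13 that did not pass (adjusted p = 0.226). The effect on Kif1a differed between the days (edgeR, adjusted p = 0.000221), as it did for 11 of 40 motors against 10.4% of all genes. The D4 call was lost without any 1 of the 4 libraries.

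Kif5a stood at 2.17 and 2.12 FPKM at D4, 2.05 and 2.03 at D9, 5.91 and 6.54 at D12, 13.8 and 12.9 at D18 and 2.54 and 2.2 at D28. Its change was the largest of the class at D12 (log2 change 0.74, SE 0.088, adjusted p = 4.15e-06) and at D18 (log2 change 0.64, SE 0.08, adjusted p = 2.03e-05). At D28 it also passed (log2 change 0.37, SE 0.104, adjusted p = 0.032), but not without either DMSO library or without the 10 nM library. Kif5c stood at 6.39 and 6.44 FPKM at D4, 10.1 and 8.14 at D9, 20.7 and 22.4 at D12, 40.2 and 38.5 at D18 and 7.59 and 7.18 at D28. At D12 (log2 change 0.61, SE 0.075, adjusted p = 5.18e-06) and D18 (log2 change 0.46, SE 0.072, adjusted p = 0.000209) both TBBPA libraries lay above both DMSO libraries, and at D28 they overlapped. With TBBPA at D18, Kif5c ranked below Kifc1 only among all motors.

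Kif21a stood at 9.84 and 8.44 FPKM at D4, 15.8 and 14 at D9, 24.5 and 27.2 at D12, 25.2 and 29.8 at D18 and 16.6 and 18.4 at D28. Kif21b stood at 2.68 and 2.47 FPKM at D4, 6.71 and 6.44 at D9, 11.1 and 11.9 at D12, 16.5 and 17.2 at D18 and 3.64 and 3.59 at D28. Both passed at D12 (Kif21a log2 change 0.57, SE 0.081, adjusted p = 2.83e-05, Kif21b log2 change 0.41, SE 0.134, adjusted p = 0.0386) and at D18 (Kif21a log2 change 0.47, SE 0.081, adjusted p = 0.000472, Kif21b log2 change 0.43, SE 0.131, adjusted p = 0.0468). Kif3c stood at 4.11 and 4.1 FPKM at D4, 7.15 and 6.7 at D9, 12 and 12.7 at D12, 18.6 and 18.2 at D18 and 10.2 and 9.82 at D28. It rose by 0.24 at D12 (SE 0.071, edgeR adjusted p = 0.0179) and 0.25 at D18 (SE 0.069, adjusted p = 0.0228) on the log2 scale. Kifc2 stood at 2.73 and 2.64 FPKM at D4, 2.16 and 2.03 at D9, 2.78 and 2.82 at D12, 6.7 and 6.13 at D18 and 3.73 and 4.03 at D28 and passed at D18 only (log2 change 0.42, SE 0.112, adjusted p = 0.0162). Kif17 stood at 0.28 and 0.23 FPKM at D4, 0.22 and 0.24 at D9, 0.58 and 0.5 at D12, 0.83 and 1.04 at D18 and 0.74 and 0.62 at D28 and passed at no day, although both TBBPA libraries lay above both DMSO libraries at D18.

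The calls of Kif1a, Kif5a, Kif5c and Kif21a at D12 and D18 held with either dose alone and without any 1 library. Those of Kif21b at both days and of Kif3c at D18 were lost without any 1 of the 4 libraries, Kif3c at D12 without 3 of 4, and Kifc2 at D18 without DMSO replicate 2 or the 10 nM library. With each DMSO pair summed to 1 library, 4 of 8 passed at D12 (Kif1a, Kif5a, Kif5c and Kif21a) and 1 at D18 (Kif5a).

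With TBBPA, 11.9% of all genes were higher and 9.19% lower at D12, and 5.96% and 4.56% at D18. Of the 12 neuronal microtubule genes, 10 rose at D12 (median 0.81) and 11 at D18 (median 0.53). Of the 15 cargo and adaptor genes, 7 rose and 1 fell at D12 and 6 rose at D18. Fez1, an adaptor of kinesin-1, had the smallest p of that list at D12 (log2 change 1.09, SE 0.091, edgeR adjusted p = 7.73e-08). Neuron markers rose for 8 of 10 at D12 and 8 of 10 at D18. They summed to 128 and 141 FPKM with TBBPA at D12, where the DMSO libraries had 68.5 and 70.1, and to 172 and 175 at D18, where they had 113 and 115, with no marker at 0. Glia markers (6 of 6 listed) also had higher sums with TBBPA, 162 and 164 against 78.4 and 79.9 at D12, with 2 of 6 passing. Fibroblast markers were lower for 4 of 6 at D12 and 6 of 6 at D18. The part of these cell types in the higher kinesin levels was not tested.

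At D28 the mitotic class rose for 7 members. Kif22 stood at 67.1 and 69 FPKM at D4, 60 and 58.9 at D9, 57.9 and 59.5 at D12, 37.8 and 38 at D18 and 22.2 and 23.9 at D28 with TBBPA and passed with the smallest p (log2 change 0.38, SE 0.063, adjusted p = 0.00103). Kif2c stood at 50.4 and 49.2 FPKM at D4, 44 and 41.7 at D9, 38.6 and 41.3 at D12, 25.3 and 25.9 at D18 and 14.8 and 16.7 at D28 (log2 change 0.30, SE 0.069, adjusted p = 0.0101 at D28). Kif18b stood at 23.2 and 26.8 FPKM at D4, 23.6 and 24.1 at D9, 25.8 and 24.7 at D12, 18.8 and 18.9 at D18 and 13.2 and 14.7 at D28 (log2 change 0.38, SE 0.086, adjusted p = 0.00912 at D28). In these 3 both TBBPA libraries lay above both DMSO libraries at D28, and the 100 nM library was the highest. Kif20a stood at 65.3 and 65.1 FPKM at D4, 61.6 and 62 at D9, 45.1 and 48.8 at D12, 34.4 and 35.3 at D18 and 23.1 and 22.8 at D28 (log2 change 0.27, SE 0.06, adjusted p = 0.0088 at D28). Kif20b stood at 12.9 and 13.8 FPKM at D4, 14.5 and 14.7 at D9, 11.8 and 12.7 at D12, 8.05 and 8.95 at D18 and 6.03 and 6.83 at D28 (log2 change 0.37, SE 0.094, adjusted p = 0.0197 at D28). Kif23 stood at 38.2 and 38.9 FPKM at D4, 40.4 and 39.2 at D9, 31.5 and 32 at D12, 27.1 and 26.1 at D18 and 17 and 17.3 at D28 (log2 change 0.28, SE 0.074, adjusted p = 0.0246 at D28). Before D28, TBBPA and DMSO libraries of these 3 overlapped or the TBBPA libraries lay lower at every day. Kif14 stood at 4.97 and 5.04 FPKM at D4, 5.28 and 5.65 at D9, 4.53 and 5.19 at D12, 3.4 and 3.51 at D18 and 2.28 and 2.25 at D28 (log2 change 0.37, SE 0.105, adjusted p = 0.0342 at D28).

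The other 6 mitotic kinesins did not pass at D28. Kif15 stood at 16.6 and 15.2 FPKM at D4, 18.1 and 18.7 at D9, 13.2 and 14.8 at D12, 8.16 and 9.7 at D18 and 4.95 and 5.59 at D28, with a log2 change of 0.29 at D28. Kif18a stood at 9.32 and 9.71 FPKM at D4, 8.69 and 8.54 at D9, 8.03 and 9.02 at D12, 4.78 and 6.22 at D18 and 3.08 and 3.13 at D28, with 0.29. Kifc1 stood at 61.2 and 62.6 FPKM at D4, 59 and 59.7 at D9, 63 and 64.2 at D12, 46 and 45.6 at D18 and 32.4 and 37.7 at D28, with 0.24. Apart from Kifc5b, each of the 6 had both TBBPA libraries above both DMSO libraries at D28, an order that was not counted over all genes. Kif11 stood at 33.3 and 32.9 FPKM at D4, 32.4 and 31.9 at D9, 24 and 26 at D12, 17.2 and 18.3 at D18 and 10.1 and 10.8 at D28, with 0.18. Kif4 stood at 21.4 and 21.1 FPKM at D4, 23.3 and 23.5 at D9, 20 and 20.9 at D12, 13.2 and 14.1 at D18 and 8.34 and 8.36 at D28, with 0.16. Kifc5b stood at 15.2 and 16.1 FPKM at D4, 13.8 and 13.5 at D9, 16.1 and 16.9 at D12, 11.1 and 13 at D18 and 9.63 and 10.8 at D28, with 0.03 and overlapping libraries. The 13 mitotic changes ranged from -0.01 to 0.18 at D4, -0.095 to 0.093 at D9, -0.18 to 0.14 at D12 and -0.23 to 0.125 at D18.

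At D28, 3.65% of all genes were higher with TBBPA. Spindle and mitosis genes outside the class rose for 14 of 20 at D28 (median 0.29), with Incenp the smallest p (log2 change 0.355, SE 0.061, edgeR adjusted p = 0.00122). They summed to 521 and 543 FPKM with TBBPA, where the DMSO libraries had 443 and 444. At the same day fibroblast markers summed to 1870 and 2017 with TBBPA and 2960 and 3039 with DMSO, with none at 0 and 3 of 6 passing as lower. Skeletal muscle markers passed as lower for 5 of 6, where 3.44% of all genes did. Their part in the mitotic result was not tested. Most of the 7 mitotic calls at D28 were lost without DMSO replicate 1, without DMSO replicate 2 or without the 100 nM library. Kif22 kept its call in each of these fits, which leave 1 library in a group. Fewer of all genes also passed in these fits and with DMSO pairs summed. Whether the losses are particular to the mitotic class was not tested. Without the lower TBBPA dose, calls of all genes did not fall, and of the 7 only Kif14 lost its call. Over all alternatives the log2 changes of the 7 ranged from 0.213 (Kif2c) to 0.461 (Kif18b). With each DMSO pair summed to 1 library, 0 of 13 passed. Library size alone moved the share of all calls at D28 that were higher from 51.5% to 38.6%, and 6 mitotic kinesins still passed as higher.

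Few motors of the remaining classes passed, and the most frequent was Kif13b. With TBBPA Kif13b stood at 7.98 and 7.87 FPKM at D4, 5.62 and 5.71 at D9, 5.12 and 5.5 at D12, 5.66 and 5.92 at D18 and 7.36 and 6.74 at D28. It was lower at D12 (log2 change -0.41, SE 0.062, adjusted p = 6.03e-05), D18 (log2 change -0.36, SE 0.062, adjusted p = 0.000512) and D28 (log2 change -0.24, SE 0.061, adjusted p = 0.0174). At all 5 days both TBBPA libraries lay below both DMSO libraries. Kifc3 stood at 3.19 and 3.29 FPKM at D4, 7.35 and 7.37 at D9, 7.33 and 6.86 at D12, 10.2 and 10.1 at D18 and 14.2 and 14.2 at D28 and was lower at D4 (log2 change -0.54, SE 0.117, adjusted p = 0.0426) and D12 (log2 change -0.49, SE 0.1, adjusted p = 0.00133). Its change differed between days (edgeR, adjusted p = 0.00434), and at D28 both TBBPA libraries lay above the DMSO pair. The Kifc3 call at D4 was lost without any 1 library, and the Kif13b call at D28 without either DMSO library or without the 100 nM library.

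Kif19a stood at 0.11 and 0.12 FPKM at D4, 0.97 and 1.09 at D9, 3.71 and 4.23 at D12, 1.56 and 2.21 at D18 and 4.92 and 3.3 at D28 and rose at D12 (log2 change 0.75, SE 0.17, adjusted p = 0.00297). At D28 its 2 TBBPA libraries lay below both DMSO libraries, at -0.44 (adjusted p = 0.105, not passed). Kif6 stood at 0.18 and 0.08 FPKM at D4, 0.54 and 0.44 at D9, 0.81 and 0.77 at D12, 1.35 and 1.2 at D18 and 1.76 and 1.54 at D28 and rose at D18 (log2 change 0.75, SE 0.202, adjusted p = 0.0184). Kif26a stood at 2.86 and 2.44 FPKM at D4, 5.11 and 4.74 at D9, 12.9 and 12.6 at D12, 9.61 and 11.4 at D18 and 2.57 and 2.92 at D28 and rose at D12 (log2 change 0.32, SE 0.094, adjusted p = 0.0195). Without DMSO replicate 2 Kif19a did not pass at D12, Kif6 did not pass without either DMSO library or without the 10 nM library, and Kif26a did not pass without any 1 of the 4 libraries. Of the cilia kinesins, 0 of 6 passed at D28, while the multiciliated marker sum was 57.5 and 41.3 FPKM with TBBPA. Kif16b stood at 5.95 and 6.01 FPKM at D4, 4.6 and 5.19 at D9, 4.73 and 4.38 at D12, 5.01 and 4.99 at D18 and 5.42 and 5.11 at D28. Kif1c stood at 30.7 and 31.3 FPKM at D4, 30.1 and 31.3 at D9, 28.7 and 26.9 at D12, 27.2 and 25.9 at D18 and 36 and 34.1 at D28. Kif27 stood at 0.41 and 0.26 FPKM at D4, 0.52 and 0.32 at D9, 0.4 and 0.43 at D12, 1.26 and 1 at D18 and 3.48 and 2.91 at D28. Of these 3, none passed at a single day. Kif9 stood at 0.07 and 0.18 FPKM at D4, 0.32 and 0.33 at D9, 0.55 and 0.49 at D12, 1.34 and 0.89 at D18 and 3.55 and 2.84 at D28. Kif26b stood at 0.01 and 0.07 FPKM at D4, 0.84 and 0.81 at D9, 1.74 and 1.57 at D12, 3.24 and 3.08 at D18 and 2.12 and 2.11 at D28. Kif12 stood at 0 and 0 FPKM at D4, 0.63 and 0.46 at D9, 0.4 and 0.45 at D12, 0.3 and 0.5 at D18 and 0.44 and 0.32 at D28. None of these passed at a single day either.

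Averaged over the 5 days, with day as a factor in the 20 embryoid body libraries, 9 of 40 motors passed (7 higher and 2 lower), against 22% of all genes (11.7% and 10.3%). Higher were Kif5a (log2 change 0.45, SE 0.068, adjusted p = 0.000159), Kif5c (0.33), Kif21a (0.32), Kif1a (0.32) and Kif21b (0.18) of the neuronal transport class and Kif22 (0.13) and Kif15 (0.12) of the mitotic class. Lower were Kif13b (log2 change -0.28, SE 0.033, adjusted p = 1.37e-05) and Kif16b (-0.12). Without D12, 5 of 40 passed, and calls of all genes went from 3566 to 1675. The calls of Kif15 and Kif22 were lost without any 1 of 4 of the 5 days, and those of Kif21b and Kif16b without any 1 of 3. Library size alone moved the share of all calls that were higher from 53.3% to 43.1%, and 7 motors passed, 4 of them neuronal transport kinesins that were higher.

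The 2 doses were not told apart on average over the days. The difference of 100 nM from 10 nM over the days had 0 of 40 motors passing with edgeR, where 0% of all 16242 genes passed, and 0 of 40 with an unadjusted p under 0.05. DESeq2 called 8 genes, of which 0 were motors. The dose differences of the 40 motors ranged from -0.335 (Kif27, SE 0.167) to 0.12 (Kif18a, SE 0.069) on the log2 scale, with a median of 0.007. This comparison has 5 libraries of each dose, 1 a day, so it does not test a dose difference at a single day.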

How the data were processed

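Gene expression was measured by RNA-seq of total RNA in 22 libraries. Per the submitters' processing notes, HISAT, Bowtie2 and the build GRCm38.p5 were used. How reads were counted, and whether by strand, the sources used here do not give. The authors deposited, per the file headers, an expected count and an FPKM value per gene and library. Genes absent from a library's table were set to 0, and 64.9% to 66.7% of the deposited expected counts were whole numbers. Expected counts were rounded and tested with edgeR 4.0.16 (TMM, quasi-likelihood F test, filterByExpr with minimum count 10 and minimum total 15) in R 4.3.3, with Benjamini-Hochberg adjustment over all genes tested and a threshold of 0.05. The control fit had 6 residual degrees of freedom, the TBBPA fit 11 and the fit over the days 13. Differences between days were tested as an interaction. Levels and sums are the deposited FPKM, and depth limits the precision of low values.

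Members were found by symbol. Values per library are given for mitotic and neuronal transport kinesins that reach a mean of 1 FPKM in any group, and for other motors that pass in a TBBPA comparison or change over 2-fold in a control step. Of the partner lists, counts are given and at most the 2 genes of smallest p. The members and lists were chosen with earlier results of these data known. Alternatives were DESeq2 1.42.0, its size factors or library size alone in edgeR, other filters, limma 3.58.1 on log2(FPKM + 1) and log2(FPKM + 0.1), other sample sets, single doses, DMSO pairs summed, a replicate block and libraries left out. A fit without the ES libraries was added after seeing the data. The tests were tested on simulated data. Kif2b and Kif28 were also on the list of other motors, but no library listed a gene under these symbols. Figures used Python 3.11.15 and matplotlib 3.10.9.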

Additional observations from a re-analysis of the deposited data

Results flagged for a closer look

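The TBBPA effect differed between the days for 11 of 40 motors and 10.4% of all genes, by edgeR's interaction test with adjustment over all genes tested. Of the neuronal transport class these were Kif1a (adjusted p = 0.000221), Kif5a (0.00704), Kif5c (0.0132) and Kif21a (0.0163), which were higher with TBBPA at D12 and D18, Kif1a also at D4 and D9 and Kif5a also at D28. Of the mitotic class they were Kif22 (0.0114), Kif20a (0.0193), Kif20b (0.0265) and Kif14 (0.0452), which were higher at D28. The other 3 were Kifc3 (0.00434), lower at D4 and D12, and Kif19a (0.00606) and Kif26a (0.0315), both higher at D12. Without D12, and likewise without D28, 3 of 40 motors passed this test. Calls of all genes went from 1708 to 515 without D12 and to 723 without D28.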

How the results depend on the processing

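Over the tested alternatives, 2022 log2 changes of single called motors kept their direction and side of the threshold, 311 lost the call and 0 reversed. These totals leave out the counts per class and the test of differences between days. The counts of motors passing for TBBPA moved most. With each DMSO pair summed to 1 library they were 0 at D4, 0 at D9, 5 at D12, 1 at D18, 0 at D28, 5 over the days and 0 for the difference between days. With 10 nM alone they were 0 at D4, 3 at D9, 6 at D12 and 2 at D28, and with 100 nM alone 1 at D4. DESeq2 gave 2 at D9, and limma on log2(FPKM + 1) gave 1 at D4. With only the 4 libraries compared, 4 passed at D4 and 2 at D9. Calls of all genes there went from 75 to 663 and from 383 to 576. In the fit without the ES libraries, chosen after seeing the data, 2 passed at D9, 14 at D28 and 17 for the difference between days. In that order, calls of all genes went from 383 to 771, from 1162 to 2074 and from 1708 to 3380. Leaving out 1 library gave 0 to 0 at D4, 1 to 2 at D9, 6 to 8 at D12, 5 to 7 at D18 and 1 to 10 at D28, and for the control steps 21 to 29, 21 to 23, 11 to 12, 23 to 24 and 28 to 30 in order of time. Leaving out 1 day gave 5 to 10 over the days and 3 to 11 for the difference between days. With DMSO pairs summed, fewer of all genes passed as well at each day, over the days and for the difference between days. The same held in the daily TBBPA comparisons with 1 library left out, except at D28 without the 10 nM library. The cause of these moves was not tested.

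Replicate numbers did not pair the libraries: over 15 pairs of control groups the deviations correlated at r = -0.033 to 0.054, with 0 above 0.1. With a replicate block, 23, 25, 16, 26 and 31 motors passed at the control steps in order of time. No paired analysis was possible for TBBPA because each dose has 1 library a day. The number of libraries limits all tests, and motors near 0 FPKM, such as Kif12, rest on few counts.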
